A study of Rattus norvegicus with 10 samples.

Results

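Zinc handling was examined in the hippocampus of rats with epilepsy after amygdala stimulation, through 10 genes: the zinc exporters Slc30a1, Slc30a3, Slc30a4 and Slc30a5, the zinc importers Slc39a1, Slc39a10 and Slc39a14, the metallothioneins Mt2A and Mt3, and the zinc-sensing transcription factor Mtf1. Members were found by the rat symbol of each RefSeq transcript identifier, with the row of the highest mean count per symbol. 9 of the 10 symbols had a row, each exactly 1, out of 32041 rows in the count matrix. Slc39a10 was not analysed here.

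The animals were 10 male Sprague-Dawley rats of an outbred strain, and mRNA was sequenced from a block of left hippocampus that contained CA3 and the dentate gyrus. The 5 sham rats (rats 1 to 5) carried electrodes in the left lateral amygdala and received no current. The 5 stimulated rats (rats 6 to 10) carried the same electrodes and received 400 µA at 60 Hz for 30 min, which evoked status epilepticus, a prolonged seizure. Stimulation went on longer in any rat that had not entered status epilepticus. The study's methods state that it was stopped with diazepam, which the sham rats are not said to have received. All tissue was collected 3 months later. By the methods of the study, the stimulated rats had spontaneous seizures by then. Each animal has its own number in the labels and gave 1 library.

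Zinc is stored with glutamate in the synaptic vesicles of many hippocampal neurons, and most densely in the mossy fibres, the axons that dentate granule cells send to CA3. Transporters of the Slc30 family (ZnT proteins) move zinc out of the cytosol, either across the plasma membrane or into vesicles and organelles, and those of the Slc39 family (ZIP proteins) move it into the cytosol. Metallothioneins are small cysteine-rich proteins that bind zinc in the cytosol, and Mtf1 binds metal response elements in front of their genes when free zinc is high.

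Values are given in CPM, the count of a gene scaled to a common library size. The log2FC is the fitted log2 of the level in stimulated over that in sham rats, and SE is its standard error. Libraries held between 13552309 and 24086059 aligned counts, and each of the 9 genes had at least 293 counts in each rat. The share of reads that the authors could not align was between 32.82% and 37.09% in sham and between 32.01% and 45.14% in stimulated rats, with the highest share in rat 10. Markers of dentate granule cells and of CA3 were present. No listed marker with a row was at 0 in every rat, but some were near 0, as Tdo2 of granule cells with at most 1 count. The 6 markers of CA1 were present too, with sums of 181.6 to 307.6 CPM in sham and 107.6 to 366.6 CPM in stimulated rats. The share of CA1 in each block was not measured. Stimulated rats 7, 9 and 10 stood apart from the other libraries in Fos, an immediate early gene induced by neuronal activity, with 106.3, 50.3 and 61.7 CPM against 3.26 to 5.32 CPM in sham rats and 5.61 and 5.24 CPM in rats 6 and 8. Because tissue pieces were sequenced whole, fewer cells of a type and less RNA per cell cannot be told apart.

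None of the 9 genes passed an adjusted p under 0.05 in the comparison of stimulated with sham rats (edgeR's quasi-likelihood test, Benjamini-Hochberg over 22447 features). Over all features the share was 0% as well. The study, which used edgeR with fewer stimulated rats, lists genes past that threshold in this model, Fos among them. At an unadjusted p under 0.05 in the present fit, 2 of the 9 genes passed, Mt2A and Slc39a14, both higher in stimulated rats. Over all tested features 9.86% passed (1505 higher and 709 lower). The groups overlapped for each of the 9 genes, while 1.29% of all features did not overlap. The fitted log2FC was above 0 for 8 of the 9 genes, against 52.2% of all features, and its median was 0.18 against 0.01 over all features. Among these 8, Mt3 and Slc30a1, at 0.03 and 0.04, changed sign when single rats were left out.

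**Figure D1:**
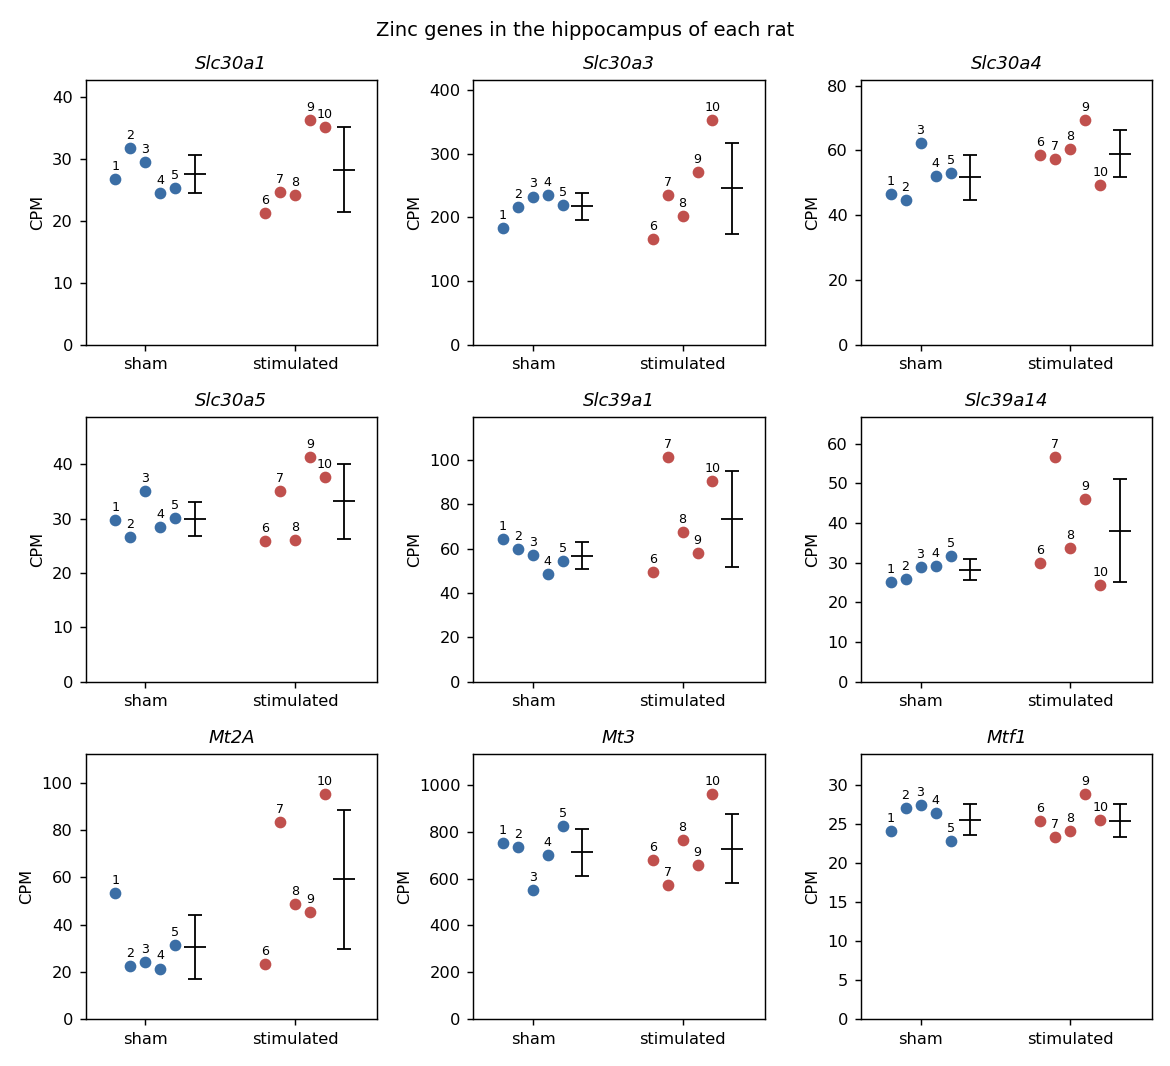
CPM of the 9 genes in each rat (y axis, from 0), with sham rats in blue and stimulated rats in red, numbered by rat; the bar beside each group is the mean ± SD (n = 5 each). The red points of Mt2A, Slc39a1, Slc39a14 and Slc30a3 are more widely spread than the blue ones, and in every panel the groups overlap.

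The rats of the stimulated group were less alike than the sham rats. The coefficient of variation (SD over mean) of the 9 genes had a median of 10.5% in sham and 24.4% in stimulated rats, and was higher in stimulated rats for 8 of them, the exception being Slc30a4. It was also higher in stimulated rats for each of the 9 further zinc importers tested, such as Slc39a8 (9.11% in sham and 36.35% in stimulated rats). For the exporter Slc30a10 it was lower (15.08% and 7.53%). The share over all features was not computed, so the wider spread is not shown to be particular to these genes. The highest value of a gene was in rat 9 for 4 genes, in rat 10 for 3 and in rat 7 for 2, and in no other rat. These are the rats with high Fos. Rats 9 and 10 also had the highest unaligned shares of all libraries, at 42.93% and 45.14%, and rat 7 had the lowest, at 32.01%. The part of these shares in the values was not tested. Rat 6, also stimulated, held the lowest value of 3 genes. Highest and lowest values per rat were not counted over all features.

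Among the exporters, Slc30a3 (ZnT3) is the transporter that loads zinc into synaptic vesicles, mossy fibre vesicles included. Slc30a3 (NM_001013243) was at 182.9, 216.7, 232.7, 234.4 and 219.9 CPM in sham rats 1 to 5 and at 166.3, 234.9, 202.6, 271.4 and 352.7 CPM in stimulated rats 6 to 10. Rats 9 and 10 lay well above all sham rats and rat 7 just above them, rat 8 lay within their range, and rat 6 lay below all of them. The means were 217.3 ± 20.8 and 245.6 ± 71.4 CPM (SD, n = 5 each), with a log2FC of 0.18 (SE 0.162, 95% confidence interval -0.17 to 0.52, adjusted p = 0.747 in edgeR's quasi-likelihood test). Without rat 10 the log2FC was 0.01, and without rat 6 it was 0.28.

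The vesicles that carry Slc30a3 also carry Slc17a7 (VGLUT1), which loads glutamate. Slc17a7 (NM_053859) ranged from 1784 to 2286 CPM in sham and from 1797 to 2355 CPM in stimulated rats, with a log2FC of 0.03 (SE 0.0891, adjusted p = 0.932 in edgeR's test). The log2 ratio of Slc30a3 to Slc17a7 within a library, which no scaling between libraries can move, had a mean ± SD of -3.22 ± 0.126 over the 5 sham rats and of -3.11 ± 0.278 over the 5 stimulated rats. The difference of 0.11 was smaller than the spread between rats (two-sided exact permutation test of group labels, p = 0.46 and 0.46 after adjustment over 2 ratios). Rat 10 had the highest ratio, at -2.74, and rat 6 the lowest, at -3.43.

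Markers of the granule cells that give rise to the mossy fibres were read beside Slc30a3. The 9 dentate markers with a row, of 10 listed, summed to between 336.1 and 417.5 CPM in sham and between 263.1 and 455.9 CPM in stimulated rats. Of the 8 tested, 0 passed an unadjusted p under 0.05, and 3 had a log2FC above 0. Plk5 was between 13.97 and 22.22 CPM in sham rats, and 4 of the 5 stimulated rats lay below all of them. Its log2FC was -1.10 (SE 0.542, unadjusted p = 0.0632, adjusted p = 0.529 in edgeR's test). Stxbp6 of the same list went the other way, with a log2FC of 0.34 (SE 0.167, unadjusted p = 0.062, adjusted p = 0.526 in edgeR's test). C1ql2 was at 44.8 CPM in rat 7 and 207.2 CPM in rat 9, against 140.5 to 165.1 CPM in sham rats. Of the 7 glutamatergic vesicle genes 0 passed the same threshold, with sums of 4892 to 5663 CPM in sham and 5056 to 5553 CPM in stimulated rats. The part of tissue composition in the Slc30a3 values was not tested.

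The other exporters had small fitted differences. Slc30a1 (ZnT1, NM_022853), which moves zinc across the plasma membrane and is a known target of Mtf1, had means of 27.6 ± 3.01 and 28.2 ± 6.89 CPM in the sham and stimulated groups (SD, n = 5 each), with a log2FC of 0.04 (SE 0.153, 95% confidence interval -0.29 to 0.37). Rats 9 and 10, at 36.2 and 35.0 CPM, lay above all sham rats, and rats 6 and 8, at 21.2 and 24.1 CPM, lay below all of them. The sign turned when either of the former was left out (-0.07 without rat 9 and -0.05 without rat 10).

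Slc30a4 (ZnT4, NM_172066), found in endosomes and lysosomes, was at 46.6, 44.6, 62.3, 52.1 and 52.9 CPM in sham and at 58.6, 57.3, 60.5, 69.3 and 49.3 CPM in stimulated rats. Only rat 9 lay above all sham rats. The log2FC was 0.19 (SE 0.114, 95% confidence interval -0.05 to 0.43, adjusted p = 0.594 in edgeR's test). Slc30a5 (ZnT5, NM_001106404), which supplies zinc to the early secretory pathway, had means of 29.98 ± 3.13 and 33.2 ± 6.92 CPM in the sham and stimulated groups, with a log2FC of 0.15 (SE 0.14, 95% confidence interval -0.16 to 0.45).

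The importers had larger fitted differences. Slc39a14 (ZIP14, NM_001107275), which carries zinc, iron and manganese into cells, was at 25.1, 26.0, 29.0, 29.3 and 31.7 CPM in sham and at 30.0, 56.6, 33.8, 46.0 and 24.3 CPM in stimulated rats. Rats 7, 8 and 9 lay above all sham rats and rat 10 below all of them. The means were 28.2 ± 2.68 and 38.1 ± 13.0 CPM (SD, n = 5 each), and the log2FC of 0.43 (SE 0.191, 95% confidence interval 0.02 to 0.84) had an unadjusted p of 0.0396 and an adjusted p of 0.475 in edgeR's test. It was 0.23 without rat 7 (unadjusted p = 0.158, adjusted p = 0.781 in edgeR's test). Without rat 10 it was 0.56 (unadjusted p = 0.00545, adjusted p = 0.471 in edgeR's test). The unadjusted p in edgeR's test was 0.089, 0.083, 0.059 and 0.056 without sham rats 1, 2, 3 and 4. It was 0.096 without rat 9, and 0.045, 0.025 and 0.043 without rats 5, 6 and 8. Of the single omissions, only those of rats 5, 6, 8 and 10 kept this p under the unadjusted threshold.

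Slc39a1 (ZIP1, NM_001134577), a plasma membrane importer of many tissues, was at 64.5, 60.0, 57.4, 48.5 and 54.5 CPM in sham and at 49.6, 101.3, 67.7, 58.1 and 90.7 CPM in stimulated rats. Rats 7, 8 and 10 lay above all sham rats, and rats 6 and 9 were within their range. The log2FC was 0.37 (SE 0.172, unadjusted p = 0.0506, adjusted p = 0.508 in edgeR's test), with values from 0.21 without rat 7 to 0.47 without rat 6. The order of the stimulated rats was not the one of Slc39a14, since rat 10 was among the highest for Slc39a1 and the lowest for Slc39a14.

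Mt2A had the largest fitted difference of the 9 genes. Mt2A (NM_001137564), a metallothionein of many cell types that metals, glucocorticoids and inflammation induce, was at 53.6, 22.4, 24.1, 21.4 and 31.3 CPM in sham and at 23.4, 83.5, 48.5, 45.2 and 95.2 CPM in stimulated rats. Rats 7 and 10 lay above all sham rats, rats 8 and 9 lay above all sham rats but rat 1, and rat 6 was at the level of most sham rats. The means were 30.5 ± 13.5 and 59.2 ± 29.5 CPM (SD, n = 5 each). The fitted fold was 1.94 (95% confidence interval 1.17 to 3.22), or a log2FC of 0.95 (SE 0.341), with an unadjusted p of 0.0144 and an adjusted p of 0.415 in edgeR's test.

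Single rats moved this value in both directions. Without rat 10 the log2FC of Mt2A was 0.72 (unadjusted p = 0.0506, adjusted p = 0.543 in edgeR's test). Without rat 7 it was 0.79 (unadjusted p = 0.0374, adjusted p = 0.65 in edgeR's test). Without sham rat 1, the highest of its group, it was 1.25 (unadjusted p = 0.00229, adjusted p = 0.555 in edgeR's test). The adjusted p was between 0.122 and 0.661 over all alternatives tried. With reads of 36 cycles and no statement of how shared reads were counted, the split of counts between Mt2A and its close relative Mt1 is uncertain.

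**Figure D2:**
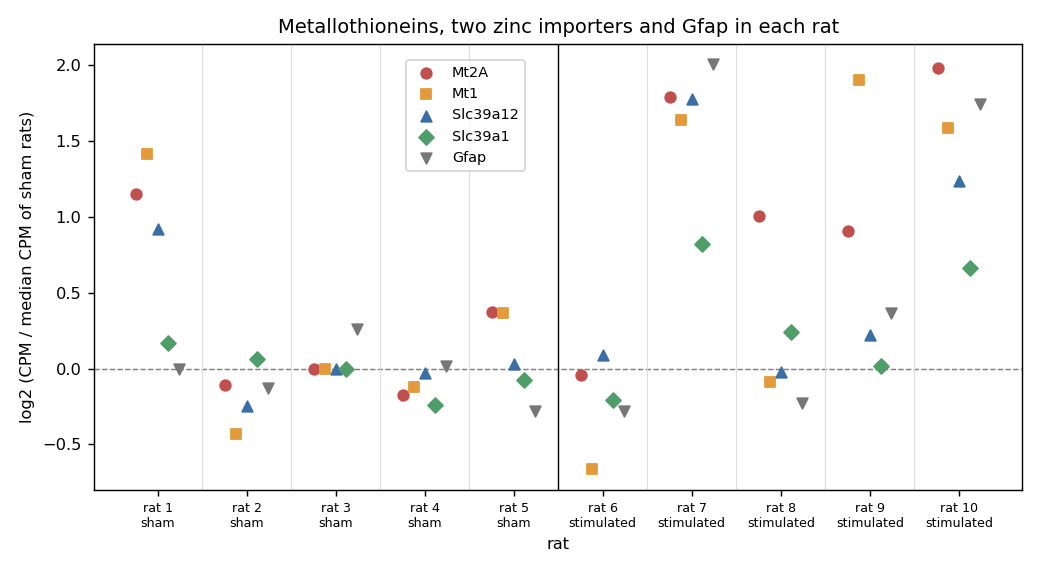
Log2 of CPM over the median of the sham rats (y axis) for Mt2A, Mt1, the importers Slc39a12 and Slc39a1, and Gfap in each rat (x axis), 1 symbol per gene. In stimulated rats 7 and 10 all 5 genes lie above the sham median, in rat 6 all but Slc39a12 lie below it, and in sham rat 1 Mt2A, Mt1 and Slc39a12 lie above it while Gfap does not.

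Mt1, the neighbouring metallothionein gene with a like range of inducers, was read from a list of further zinc genes. Mt1 (NM_138826) was at 34.3, 9.54, 12.8, 11.8 and 16.6 CPM in sham and at 8.10, 39.9, 12.1, 47.9 and 38.6 CPM in stimulated rats. Rats 7, 9 and 10 lay above all sham rats, rat 6 below all of them, and sham rat 1 was again the highest of its group. The log2FC was 0.79 (SE 0.455, 95% confidence interval -0.19 to 1.77, adjusted p = 0.578 in edgeR's test). In rat 8 Mt2A stood above the sham median and Mt1 did not.

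Mt3, the metallothionein enriched in brain, had a small fitted difference. Mt3 (NM_053968) was at 751, 735, 550.9, 700.4 and 824.7 CPM in sham and at 681.5, 571.2, 763.9, 659.8 and 960.4 CPM in stimulated rats. Rat 10 lay above all sham rats, and rat 7, among the highest for Mt2A, was the lowest stimulated rat for Mt3. The means were 712.4 ± 101 and 727.4 ± 147 CPM (SD, n = 5 each), with a log2FC of 0.03 (SE 0.134, 95% confidence interval -0.26 to 0.32). Its sign turned to -0.09 without rat 10.

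Both metallothioneins were compared within each library. The log2 ratio of Mt2A to Mt3 was -3.81, -5.03, -4.51, -5.03 and -4.72 in sham and -4.86, -2.77, -3.97, -3.87 and -3.33 in stimulated rats. Rats 7 and 10 lay above all sham rats and rats 8 and 9 above all but rat 1. The means were -4.62 ± 0.505 and -3.76 ± 0.778 (SD, n = 5 each), and the difference of 0.86 did not pass the threshold (two-sided exact permutation test of group labels, p = 0.0794 and 0.159 after adjustment over 2 ratios), where 0.00794 is the smallest p this design allows. With single rats left out it was between 0.61 (without rat 7) and 1.13 (without rat 6), and the exact p was 0.0397 without sham rat 1 and 0.0317 without rat 6.

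**Figure D3:**
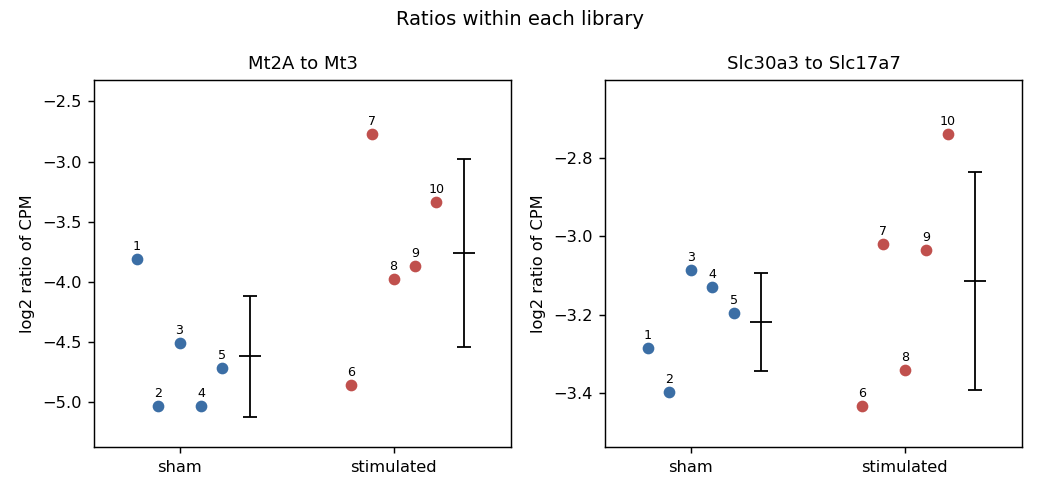
Log2 ratio of CPM (y axis) of Mt2A to Mt3 (left) and of Slc30a3 to Slc17a7 (right) within each library, numbered by rat, with the mean ± SD of 5 rats beside each group. The Mt2A to Mt3 ratio of sham rat 1 (-3.81) lies among the stimulated rats and that of stimulated rat 6 (-4.86) among the sham rats.

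Mtf1 (NM_001108677), the sensor upstream of the metallothioneins, had the smallest coefficient of variation of the 9 genes in each group. It was at 24.1, 27.0, 27.4, 26.4 and 22.8 CPM in sham and at 25.3, 23.4, 24.1, 28.8 and 25.4 CPM in stimulated rats. The groups covered almost the same range, with rat 9 above it. The log2FC was -0.01 (SE 0.0974, 95% confidence interval -0.22 to 0.20, adjusted p = 0.989 in edgeR's test).

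The sequences in front of the metallothionein genes are shown because they were searched for the core of the element that Mtf1 binds. Each is the stretch of 250 bases that ends just before the RefSeq transcription start, from the GRCr8 assembly, written 5′ to 3′ on the strand of the gene. Capitals mark matches to the core of the metal response element, TGCACNC or TGCGCNC, on either strand. Mt1 lay at chr19:10832976-10833225, Mt2A at chr19:10838709-10838958 and Mt3 at chr19:10856081-10856330, all on the minus strand.
Mt1: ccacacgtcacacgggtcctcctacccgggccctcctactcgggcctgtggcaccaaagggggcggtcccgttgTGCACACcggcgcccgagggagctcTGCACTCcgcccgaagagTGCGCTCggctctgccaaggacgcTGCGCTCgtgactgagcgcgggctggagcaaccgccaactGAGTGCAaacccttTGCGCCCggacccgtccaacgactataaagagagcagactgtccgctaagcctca
Mt2A: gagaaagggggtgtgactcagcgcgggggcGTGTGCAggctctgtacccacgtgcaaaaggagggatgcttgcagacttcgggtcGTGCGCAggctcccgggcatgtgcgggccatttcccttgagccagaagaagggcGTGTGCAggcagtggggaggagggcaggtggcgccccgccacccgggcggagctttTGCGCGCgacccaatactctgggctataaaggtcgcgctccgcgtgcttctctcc
Mt3: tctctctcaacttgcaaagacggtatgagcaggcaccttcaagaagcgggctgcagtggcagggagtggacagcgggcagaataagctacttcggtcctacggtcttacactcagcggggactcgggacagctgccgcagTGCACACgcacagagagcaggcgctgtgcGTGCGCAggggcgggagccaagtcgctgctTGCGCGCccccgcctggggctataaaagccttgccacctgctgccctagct

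Mt1 held 6 matches, Mt2A 4 and Mt3 3. Over 33469 windows of the same length in front of RefSeq starts, 20.6% held at least 1 match, 4.9% at least 2, 1.17% at least 3 and 0.266% at least 4. In the annotation Mt1, Mt2A, Mt3 and Mt4 follow each other with no gene between them. Mt3, with 3 matches, had a log2FC of 0.03, Mt2A, with 4, one of 0.95, and Mt1, with 6, one of 0.79. Whether the matches bear on these values was not tested.

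Of the other members, Slc30a1, Slc30a4, Slc30a5 and Mtf1 itself held 2 matches and Slc39a1 held 1. Both matches of Slc30a5 overlapped, as the same run of bases was read on either strand. Slc30a3 and Slc39a10 held 0 matches in this window. A match is a run of letters only, and binding was not measured.

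**Figure D4:**
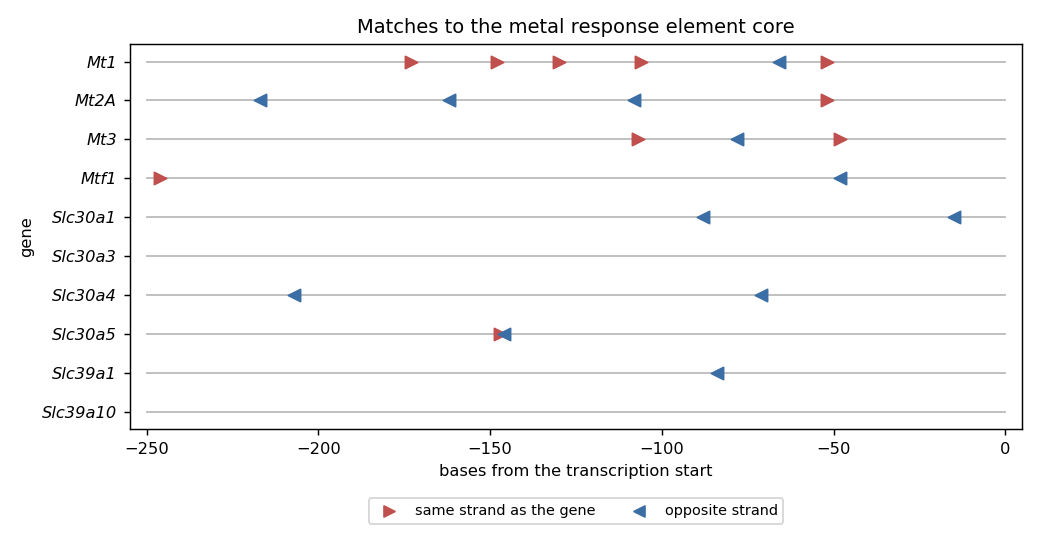
Position of each match to the core of the metal response element in the 250 bases before the transcription start (x axis, bases from the start), 1 line per gene, with red arrows for matches on the strand of the gene and blue arrows for the opposite strand. The lines of Mt1, Mt2A and Mt3 carry 6, 4 and 3 arrows, and those of Slc30a3 and Slc39a10 none.

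The rest of the zinc pathway was read from lists of 25 further genes, of which 22 had a row and 19 were tested. None passed an adjusted p under 0.05 (edgeR's quasi-likelihood test), and 1 passed an unadjusted p under 0.05, which is below the 9.86% of all features at that threshold. This was Slc30a7 (ZnT7, NM_001191715), which carries zinc into the Golgi apparatus, with means of 4.07 ± 0.709 and 2.86 ± 0.772 CPM in the sham and stimulated groups and a log2FC of -0.50 (SE 0.213, unadjusted p = 0.0329, adjusted p = 0.458 in edgeR's test). 4 of the 5 stimulated rats lay below all sham rats.

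By role, 4 of 6 further exporters, 9 of 11 importers, 1 of 2 metallothioneins and 5 of 6 genes for zinc sensing and zinc-binding partners were tested. Slc30a2, Slc39a2 and Mt4 had too few counts, and Slc30a6, Slc39a13 and Ap3b2 were not analysed here. The median log2FC was -0.05 for the exporters, 0.14 for the importers and -0.19 for the sensing list, against 0.01 over all features.

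**Figure D5:**
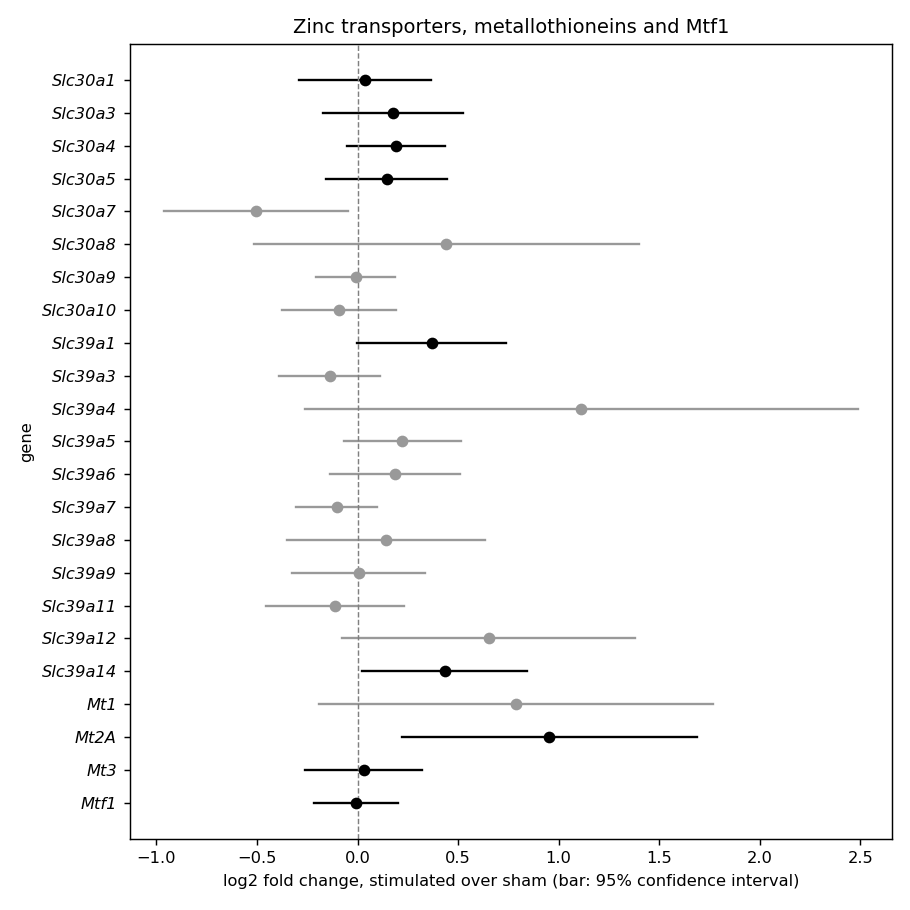
Fitted log2FC of stimulated over sham rats (x axis) with its 95% confidence interval for the zinc transporters, metallothioneins and Mtf1 that were tested (y axis), members in black and further genes in grey. The intervals of Mt2A, Slc39a14 and Slc30a7 do not include 0, and no gene passed the adjusted threshold.

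Slc39a12 (ZIP12, NM_001106124), a zinc importer of astrocytes and other brain cells, was at 20.7, 9.24, 10.9, 10.7 and 11.2 CPM in sham and at 11.6, 37.5, 10.8, 12.8 and 25.8 CPM in stimulated rats. Rats 7 and 10 lay above all sham rats, as for Mt2A and Slc39a1, and sham rat 1 was the highest of its group. The log2FC was 0.65 (SE 0.339, adjusted p = 0.548 in edgeR's test).

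Metallothioneins are made in astrocytes among other cells, so astrocyte markers were read beside them. Of 9 tested astrocyte markers (10 listed), 6 were higher in stimulated rats at an unadjusted p under 0.05 and 0 passed the adjusted threshold. Over all features 9.86% passed the unadjusted threshold (1505 higher and 709 lower of 22447). The astrocyte list summed to between 4858 and 5523 CPM in sham and between 5147 and 11070 CPM in stimulated rats. Gfap, the intermediate filament protein of astrocytes, was at 1326, 6469, 1375, 2079 and 5396 CPM in stimulated rats 6 to 10 and between 1327 and 1927 CPM in sham rats.

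Rats 7 and 10 were the highest of all 10 for Gfap as for Mt2A, while rat 8 had more Mt2A than most sham rats and Gfap in the sham range, and sham rat 1 had the most Mt2A of its group and Gfap of 1610 CPM, also in that range. Not all astrocyte markers were highest in rats 7 and 10. Aldh1l1, a folate enzyme of astrocytes, was at 16.4 and 29.3 CPM in these rats against 40.5 to 50.9 CPM in sham rats. Gja1, the gap junction protein connexin 43, was at 271.1 CPM in rat 7, below all sham rats (285.7 to 355.5 CPM). Both were named after their values were seen. The 8 microglia markers summed to between 231.9 and 287.0 CPM in sham and between 248.0 and 347.9 CPM in stimulated rats, and 0 of them passed an unadjusted p under 0.05. Of 7 tested endothelial markers 4 were higher at that threshold, beside 9.86% of all features. The endothelial sums were 165.2 to 184.0 CPM in sham and 154.5 to 318.8 CPM in stimulated rats. The part of these cells in the Mt2A values was not tested.

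The genes whose levels across the 10 rats were most like those of Mt2A and Slc30a3 were ranked by Pearson's r of log2 CPM among 9195 genes, as a description without a test. For Mt2A these were Parp3 (r = 0.95), an enzyme of DNA repair, Lyplal1 (0.94), Sparc (0.94), a secreted matrix protein made by glia and vessels, Fads1 (0.93), a fatty acid desaturase, and Polr1h (0.93), a subunit of an RNA polymerase. Without rats 7 and 10, the farthest from the median of Mt2A, r was 0.96, 0.83, 0.82, 0.82 and 0.85. Mt2A had an r of 0.90 with Slc39a1, 0.86 with Slc39a12, 0.82 with Mt1, 0.78 with Gfap and 0.76 with Fos. The values by rank (Spearman's rho) were 0.842, 0.818, 0.758, 0.503 and 0.515, so those with Gfap and Fos were weaker by rank.

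For Slc30a3 the nearest were Nrxn2 (r = 0.92), a presynaptic adhesion protein, Sh3bp1 (0.91), Prkar1b (0.90), a regulatory subunit of protein kinase A in neurons, Sqstm1 (0.89), an autophagy receptor, and Vat1 (0.89). Without rats 6 and 10, the farthest from the median of Slc30a3, r was 0.77, 0.85, 0.66, 0.64 and 0.74. Slc30a3 had an r of 0.78 with Slc17a7, 0.76 with Slc30a5, 0.75 with Slc30a1, 0.67 with Gfap, 0.67 with Fos and 0.50 with Mt2A. By rank (Spearman's rho) it was nearer to Slc30a5 (0.86) and Gfap (0.84) than to Slc17a7 (0.55). The points of each correlation share their library, its depth and its group.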

How the data were processed

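The data were messenger RNA counts from 5 sham and 5 stimulated rats, grouped by the treatment label. The authors selected polyadenylated RNA, sequenced single reads of 36 cycles, used BWA for alignment to rat build rn4 and counted reads with a custom script. The deposited values are raw counts per RefSeq transcript with no normalization, although the study's methods name an Ensembl annotation. The handling of shared reads and of strand is not given in the sources used here, nor whether rats came from separate litters or surgery days. The p-values set the difference between groups against the spread between these rats and treat the rats as independent, which could not be checked. All 10 labelled rats were used, although the study's methods give fewer stimulated animals without naming the one left out.

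The matrix held 32041 features besides a row of unaligned reads, which entered no test, and 3904 features were at 0 in each rat. Symbols came from the RefSeq gene table of GRCr8, for names alone, and matched 17371 features. Following the study, features with a summed count below the 30th percentile (46 counts) were dropped, leaving 22447 for the test. This was edgeR's quasi-likelihood test (edgeR 4.0.16, R 4.3.3) with TMM factors and without covariates, and p-values were adjusted by Benjamini-Hochberg over these features. All p-values and adjusted p-values of single genes come from this test unless another is named. CPM used library sizes scaled by TMM, and 2 counts were added before the log2. The SE is the absolute log2FC over the square root of F. Aligned counts of 13552309 to 24086059 per rat set the depth, with at least 293 counts of each member in each rat.

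Alternatives were RLE factors, library size alone, other filters, adjusted deviances, the likelihood ratio test, DESeq2 1.42.0, limma-voom (limma 3.58.1), summed rows per symbol, a prior count of 0.5 and the omission of each rat. The fits were tested on simulated data. Exact permutation tests, two-sided (scipy 1.17.1), of the group labels compared the 2 ratios.

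Named were all members, Mt1, each gene of the zinc, iron and copper, glucocorticoid and Nrf2 lists with an unadjusted p under 0.05, Slc17a7, Gfap and Fos, and the 5 genes most like Slc30a3 and Mt2A with a mean of at least 5 CPM. Slc39a12, Slc39a8, Slc30a10, Aldh1l1, Gja1, Plk5, Stxbp6, C1ql2 and Tdo2 were added after their values were seen. The members and lists were chosen with earlier results of these data known. Promoter sequences are RefSeq entries of GRCr8, with an entry for each member but Slc39a14, and their coordinates were not compared with the rn4 alignment.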

Additional observations from a re-analysis of the deposited data

Results flagged for a closer look

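In 60 groups of 5 rats, covering the members, the further zinc genes and both ratios, 3 values lay so far from the nearest other rat of their group that the gap passed Dixon's critical value of 0.71, and chance gives about 3 (1 in 20 groups). All 3 were values of sham rats, 1 of rat 3 and 2 of rat 1, and none concerned a member. For Slc30a7 rat 3 was at 5.33 CPM while the other sham rats were between 3.67 and 3.84 CPM, a gap of 0.892 of the range. For Slc39a12 rat 1 was at 20.7 CPM with the next sham rat at 11.2 CPM, a gap of 0.833 of the range. For Mt1 rat 1 was at 34.3 CPM with the next at 16.6 CPM, a gap of 0.716 of the range. Rat 1 was also the highest sham rat for Mt2A, at 53.6 CPM, and without it the log2FC of Mt2A was 1.25.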

How the results depend on the processing

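The count of members at an adjusted p under 0.05 was 0 in edgeR's quasi-likelihood test and in all 19 alternatives, other tools included, and so was that of the 19 further zinc genes (22 with no filter). Over all features this count was 119 in the likelihood ratio test and 33 in DESeq2, with 0 members among them. The count of members at an unadjusted p under 0.05 was 2 in edgeR's quasi-likelihood test. It was 1 with limma-voom (Mt2A) and 3 with DESeq2, adjusted deviances, library size alone, the likelihood ratio test and no filter, where Slc39a1 also passed, and the cause was not tested. It was between 1 and 3 with single rats left out. It was 1, Mt2A, without sham rats 2 or 4 or without stimulated rat 7, and 3 without stimulated rat 6. Where the count stayed at 2, the pair was not always the same. Mt2A and Slc39a14 passed without sham rat 5 or stimulated rat 8. Mt2A and Slc39a1 passed without sham rat 1 or stimulated rat 9. Mt2A and Slc30a4 passed without sham rat 3, and Slc30a4 and Slc39a14 without stimulated rat 10. The count of all features at an unadjusted p under 0.05 was 2214 of 22447 in edgeR's quasi-likelihood test. It was 2034 with limma-voom, 2329 with DESeq2 and 2202 with library size alone. It was 1785, 1693 and 1657 without sham rat 2, sham rat 4 and stimulated rat 7. Without stimulated rat 6 it was 3145, and without rat 8, where 2 members passed, 3034. The moves in the member count are not shown to be particular to these genes.

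The log2FCs of Slc30a3, Slc30a4, Slc30a5, Slc39a1, Slc39a14 and Mt2A kept their sign in all 19 alternatives. These alternatives used the same rats, so a kept sign is no separate evidence. The 95% confidence intervals of Slc30a3, Slc30a4, Slc30a5 and Slc39a1 include 0. That of Mtf1, at -0.007, turned to 0.016 with library size alone. With single rats left out, Mtf1 was between -0.056 and 0.019, Mt3 between -0.09 and 0.093 and Slc30a1 between -0.069 and 0.112, so no direction can be read for these 3 genes. The Mt2A to Mt3 ratio was between 0.61 and 1.13 with single rats left out, and the Slc30a3 to Slc17a7 ratio between 0.01 and 0.19. No paired analysis was possible because the rat numbers 1 to 10 are each used once and pair no sham with a stimulated rat.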

Other observations

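Other metals that share carriers with zinc were read from a list of 17 genes for iron and copper handling, all tested. At an unadjusted p under 0.05, 3 were higher in stimulated rats and 0 lower, beside 9.86% of all features, and 0 passed the adjusted threshold (edgeR's quasi-likelihood test). Cp, the copper-binding ferroxidase ceruloplasmin, was between 4.43 and 7.29 CPM in sham and at 4.71, 15.1, 9.13, 7.96 and 11.1 CPM in stimulated rats, with a log2FC of 0.79 (SE 0.261, adjusted p = 0.407 in edgeR's test). The copper transporters Slc31a1 and Slc31a2 had log2FCs of 0.36 (SE 0.155) and 0.72 (SE 0.256). For Cp all stimulated rats but rat 6 lay above all sham rats.

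Glucocorticoids and oxidative stress induce metallothioneins in many tissues, and targets of both were read beside Mt2A. Of 12 glucocorticoid target genes, 5 were higher (Fkbp5, Pdk4, Errfi1, Cdkn1a and Klf9) and 2 lower (Tsc22d3 and Zbtb16) in stimulated rats at an unadjusted p under 0.05, beside 9.86% of all features (1505 higher and 709 lower of 22447). Of 10 targets of the oxidative stress factor Nrf2, 2 were higher (Hmox1 and Srxn1) and 0 lower. None passed the adjusted threshold, with a lowest adjusted p of 0.376 and 0.38 for these lists in edgeR's test.

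Fkbp5, a chaperone that glucocorticoids induce, was between 82.9 and 92.0 CPM in sham and at 96.6, 167.5, 98.2, 125.6 and 97.6 CPM in stimulated rats, all of which lay above all sham rats. Tsc22d3 (GILZ), induced by the same hormones, was between 38.8 and 46.4 CPM in sham and at 45.4, 29.7, 40.6, 34.2 and 24.7 CPM in stimulated rats, of which 3 lay below all sham rats. Hmox1, the haem-degrading enzyme, was between 5.24 and 9.16 CPM in sham and at 6.88, 50.2, 11.5, 16.4 and 12.0 CPM in stimulated rats. Rat 7 was the highest for Fkbp5 and Hmox1 and rat 10 for Mt2A. Whether any of these differences bears on Mt2A was not tested.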
